A study of Mus musculus with 2 samples.

Results

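Rsad2, Cmpk2, Samhd1 and Isg20 encode interferon-regulated enzymes that act on nucleotides or on RNA, and all 4 genes were found among the 28692 genes of the deposited counts. They were chosen by name and function, with earlier results of these data known, and were compared between TAK-981 and vehicle in T cells, myeloid cells and A20 cells. Single-cell RNA sequencing had been done on tumours of A20, a mouse B cell lymphoma line, grown under the skin of Balb/c mice. One group had received TAK-981 intravenously at 7.5 mg/kg, and the other had received its vehicle, 20% HPbCD (a hydroxypropyl-type cyclodextrin), by the same route. All hosts carried the same transplanted line, the tumours were removed 8 h after dosing, and dead cells were depleted before loading. TAK-981 blocks the SUMO-activating enzyme, and thereby the attachment of the SUMO modifier to transcription factors and other proteins. Each arm was 1 library, and the labels used here do not state how many mice stood behind it. No test between the arms was therefore possible, no p-value is given, and every interval covers counting error only.

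Cells infected by viruses or stimulated with interferon limit viral copying in part by changing the nucleotides that a polymerase can use and by breaking down RNA. Rsad2 encodes viperin, a radical S-adenosylmethionine enzyme with an iron-sulfur cluster that converts CTP into ddhCTP, a nucleotide that ends growing RNA chains. Cmpk2, the gene next to Rsad2, encodes a mitochondrial kinase that phosphorylates CMP and UMP and so works on the same nucleotide pool. Samhd1 encodes a phosphohydrolase that cleaves deoxynucleoside triphosphates and limits retroviruses such as HIV in human myeloid and resting T cells. Isg20 encodes an exonuclease that degrades single-stranded RNA from its 3′ end.

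T cells were barcodes with at least 2 unique molecular identifiers (UMIs) of Cd3d, Cd3e and Cd3g together, myeloid cells had at least 5 Lyz2 UMIs, and A20 cells had at least 1 Cd79a UMI with Cd3 and Lyz2 at 0. Barcodes with 10% or more mitochondrial UMIs were left out, which were 15.7% of 2396 in the TAK-981 library and 4.81% of 2579 in the vehicle library. The classes held 45 and 60 T cells, 39 and 44 myeloid cells and 1754 and 2191 A20 cells in the TAK-981 and vehicle libraries, and no cell met both the T cell and the myeloid rule. The median barcode had 11840.5 UMIs with TAK-981 and 19608 UMIs in the deeper vehicle library. UMIs of a class were therefore summed per library and scaled to a class sum of 1000000 (CPM), and shares of cells were taken after each cell had been thinned to 4000 UMIs. The 2 libraries had 11 barcodes in common. T cell markers were all detected in T cells (11 of 11 in both libraries) and Cd3d, Cd3e and Cd3g were at 0 in A20 cells, as the rule sets. T cells also held B cell and A20 transcripts, with summed markers at 2012 CPM in TAK-981 and 2773 CPM in vehicle T cells. At least 5 UMIs of B cell genes were found in 6 of 45 TAK-981 and 13 of 60 vehicle T cells. The A20 rule would also admit host B cells. Xist, a transcript of female cells, was found in 9 of 1754 TAK-981 and 22 of 2191 vehicle A20 cells, against 38 of 45 TAK-981 and 54 of 60 vehicle T cells. The myeloid classes were not alike in makeup. C1qa, C1qb and C1qc, complement genes of macrophages, were at 0 UMIs in TAK-981 myeloid cells and at 100, 104 and 93 UMIs in vehicle myeloid cells, all within 7 cells. Summed B cell and A20 markers, nearly all from the antigen-presentation gene Cd74, were at 5682 CPM in TAK-981 and 19307 CPM in vehicle myeloid cells. Summed neutrophil markers were at 212 CPM in TAK-981 and 48.7 CPM in vehicle myeloid cells.

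Interferon acts on gene starts through short motifs, so the 250 bases before each start were searched on both strands for the interferon-stimulated response element (GAAA, any 2 bases, GAAA), which binds ISGF3 and interferon regulatory factors, and for the gamma-activated site TTCNNNGAA, which binds STAT dimers. The sequences are RefSeq's, on the GRCm38.p6 build. Capitals mark a match, each stretch runs 5′ to 3′ on the gene's own strand, and the stretches show where the genes differ. Rsad2 had 1 response element, which begins 120 bases before its start and reads as the reverse complement. Cmpk2 had neither motif. Its bases before the annotated gene are shown because it lies head to head with Rsad2, with 12.7 kb between the starts, and follows it in myeloid and T cells below. The last 98 bases of the Cmpk2 window lie in the annotated gene and were searched but are not shown. Samhd1 had 1 gamma-activated site, 235 bases before its start, and the first of 3 annotated Isg20 starts had 1 at 73 bases.
Rsad2, chr12:26456543-26456592, minus strand: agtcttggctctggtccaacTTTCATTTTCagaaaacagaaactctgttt
Cmpk2, chr12:26468965-26469116, plus strand: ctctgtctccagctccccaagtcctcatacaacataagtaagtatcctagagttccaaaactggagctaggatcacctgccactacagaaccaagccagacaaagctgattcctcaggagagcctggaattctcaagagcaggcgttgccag
Samhd1, chr2:157135303-157135346, minus strand: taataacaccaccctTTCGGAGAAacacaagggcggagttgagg
Isg20, chr7:78913331-78913379, plus strand: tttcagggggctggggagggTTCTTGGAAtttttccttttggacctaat
Among all 32851 RefSeq promoter windows of the same length, 2.98% held a match to the response element and 7.02% one to the gamma-activated site. A match describes these letters and not a bound site.

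With TAK-981 all 4 genes had higher levels in T cells and in myeloid cells, by 3.29-fold to 309-fold where both libraries had UMIs. In A20 cells Samhd1 and Isg20 were higher by 1.60-fold and 2.32-fold, while Rsad2 and Cmpk2 stayed near the limit of detection in both libraries. The plot of levels by class shows that Rsad2 and Cmpk2 were almost silent without drug in every class, whereas Samhd1 and Isg20 already had UMIs in each class of vehicle cells. Over every gene that reached 10 UMIs in the sum of both libraries, the share at least 2-fold higher with TAK-981 was 6.32% of 7868 genes in T cells, 10.8% of 6417 genes in myeloid cells and 3.46% of 12250 genes in A20 cells. Against these shares stood 4 of 4 enzyme genes in T cells, 4 of 4 in myeloid cells and 1 of the 2 that could be measured in A20 cells. Rsad2 and Cmpk2 reached 10 UMIs through the TAK-981 library, having 0 vehicle UMIs in T cells and 3 and 1 in myeloid cells. Genes that pass the minimum this way count as higher by construction, so these 2 add nothing to the comparison of shares. The shares at least 2-fold lower were 9.32%, 14.3% and 1.5% in T, myeloid and A20 cells, and none of the 4 genes was among them.

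**Figure D1:**
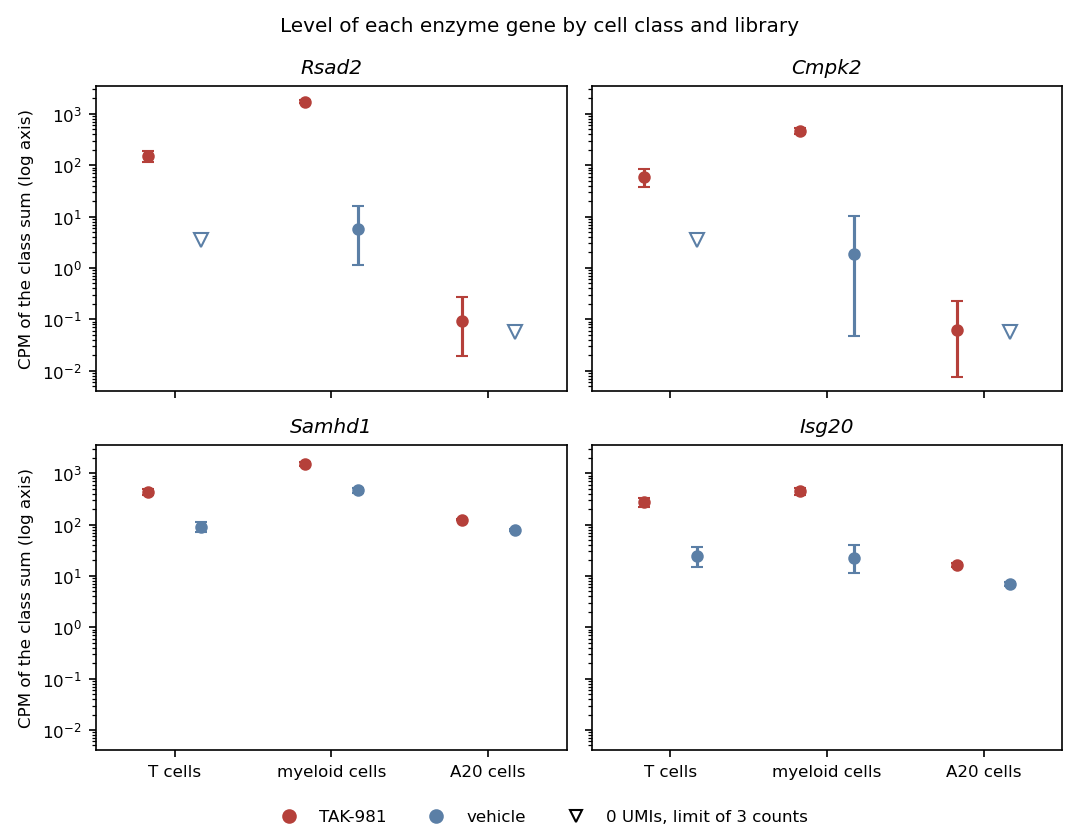
CPM of each enzyme gene in the summed cells of each class (log axis), TAK-981 in red and vehicle in blue; bars are exact 95% Poisson intervals and open triangles mark the limit of 3 counts where no UMI was found. Rsad2 in myeloid cells stands at 1733 CPM with TAK-981 and 5.62 CPM with vehicle, and in A20 cells at 0.0924 CPM with TAK-981 and 0 UMIs with vehicle.

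Among the 4 genes and 3 classes, Rsad2 in myeloid cells had the highest ratio measured. Myeloid cells held 629 Rsad2 UMIs in the TAK-981 library, 1733 CPM (Poisson 95% interval 1601 to 1874), and 3 UMIs in the vehicle library, 5.62 CPM (1.16 to 16.4). The ratio was 309-fold, with a counting interval of 105 to 1500 that is wide because it rests on 3 vehicle UMIs. Rsad2 was found in 28 of 39 TAK-981 and 3 of 44 vehicle myeloid cells, and each of those vehicle cells had 1 UMI. At equal depth the shares were 61.5% (exact 95% interval 44.6 to 76.6%) with TAK-981 and 0 of 44 with vehicle. By the limit of 3 cells used here for every share of 0, this allows a vehicle share of up to 6.82%, and the exact interval reaches 8.04%. The levels were uneven among cells: positive TAK-981 cells had a median of 16 UMIs, 19 cells had 5 or more, and a single cell with 149 UMIs held 23.7% of the sum.

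T cells held 66 Rsad2 UMIs in the TAK-981 library, 148 CPM (115 to 189), and 0 in the vehicle library. Taking 3 counts as the limit for the vehicle sum, the level was at least 42.7-fold higher with TAK-981. The transcript was in 13 of 45 TAK-981 T cells and 0 of 60 vehicle T cells (limit of 3 cells 5%, exact upper bound 5.96%), or 24.4% (12.9 to 39.5%) of TAK-981 and 0 of vehicle T cells at equal depth. Most of the 66 UMIs came from 3 cells, which held 17, 16 and 12. Summed myeloid markers in T cells were at 429 CPM with TAK-981 and 197 CPM with vehicle, and 1 TAK-981 T cell and no vehicle T cell had a Lyz2 UMI. Without that cell the log2 bound for Rsad2 was 5.15, against 5.42 with it. In A20 cells, by far the deepest class, Rsad2 had 3 UMIs in 1754 TAK-981 cells (0.171%, 0.0353 to 0.499%) and 0 in 2191 vehicle cells (limit of 3 cells 0.137%, exact upper bound 0.168%), so no ratio is given. Median depth was 16195 UMIs in these A20 cells and 8287 UMIs in TAK-981 myeloid cells, so depth per cell was higher where Rsad2 was scarce. Within the TAK-981 library Rsad2 was 11.7-fold (9.05 to 15.3) higher in myeloid than in T cells, and 88.1% of its 714 UMIs in kept cells came from the 39 myeloid cells.

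Cmpk2 followed Rsad2 in myeloid and T cells, and in A20 cells both genes had too few UMIs to compare. Myeloid cells had 169 Cmpk2 UMIs with TAK-981, 466 CPM (398 to 541), and 1 UMI with vehicle, 1.87 CPM (0.0474 to 10.4). The 249-fold ratio, whose interval overlaps that of Rsad2, has a counting interval of 44.0 to 9879 because the vehicle value is a single molecule. At equal depth 43.6% (27.8 to 60.4%) of TAK-981 and 2.27% (0.0575 to 12.0%) of vehicle myeloid cells had a Cmpk2 UMI. T cells had 26 Cmpk2 UMIs with TAK-981, 58.5 CPM (38.2 to 85.7), found in 11 of 45 cells, and 0 with vehicle, so that the level was at least 16.8-fold higher. In 3 of those cells there were 5 Cmpk2 UMIs each, and the same 3 cells held 17, 16 and 12 Rsad2 UMIs. Both T cell results thus rest mostly on the same few cells. A20 cells had 2 Cmpk2 UMIs with TAK-981 and 0 with vehicle. In TAK-981 myeloid cells thinned to equal depth, all 17 cells with Cmpk2 were among the 24 with Rsad2, where the product of both shares gives 10.5 cells. In TAK-981 T cells, 3 cells held both where the product gives 1.71.

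Rsad2 and Cmpk2 are adjacent in RefSeq's gene order, on opposite strands with their starts facing each other. The nearest other protein-coding gene of the files on the Rsad2 side, Rnf144a, had 5 TAK-981 and 0 vehicle UMIs in myeloid cells, 1 TAK-981 and 3 vehicle UMIs in T cells and 0 TAK-981 and 4 vehicle UMIs in A20 cells, too few for a comparison. The gene beside Isg20, Aen, another exonuclease gene of the same family, was measured well in A20 cells, with 1293 TAK-981 and 2080 vehicle UMIs, or 39.8 CPM with TAK-981 and 39.2 CPM with vehicle. Its ratio was 1.02 (0.946 to 1.09) in A20 cells, 0.876 (0.431 to 1.70) in T cells and 0.981 (0.287 to 3.09) in myeloid cells. Rbl1, which neighbours Samhd1, had a ratio of 1.18 (1.06 to 1.31) in A20 cells and 1.83 (0.887 to 3.77) in T cells, and Dsn1 one of 1.05 (0.938 to 1.16) in A20 cells. Of the neighbours with at least 10 UMIs in a class, only Rsad2 and Cmpk2 themselves were at least 2-fold higher.

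**Figure D2:**
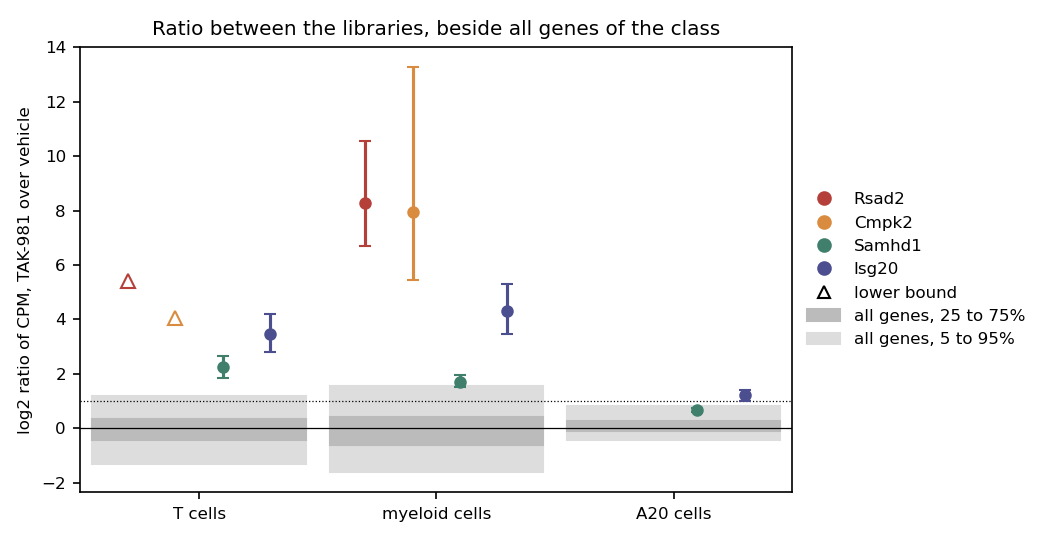
Log2 ratio of CPM, TAK-981 over vehicle, for each enzyme gene and class, with exact 95% counting intervals; open triangles are lower bounds against 0 vehicle UMIs, and grey boxes span the middle 50% and 90% of all genes with at least 10 UMIs. All 4 genes lie above the 95th percentile of T cells (1.18) and of myeloid cells (1.56), and in A20 cells Samhd1 at 0.68 lies below that percentile (0.81) and Isg20 at 1.21 above it. Rsad2 and Cmpk2 reached 10 UMIs through the TAK-981 library, so their place above the percentile follows from that minimum.

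Samhd1 was found in most myeloid cells of the vehicle library too and had the smallest ratios of the 4 genes. T cells had 191 Samhd1 UMIs with TAK-981, 429 CPM (371 to 495), and 78 with vehicle, 90.4 CPM (71.5 to 113), a ratio of 4.75 (3.63 to 6.26). Myeloid cells had 555 UMIs with TAK-981, 1529 CPM (1405 to 1662), and 248 with vehicle, 464 CPM (408 to 526), a ratio of 3.29 (2.83 to 3.84). A20 cells had 4049 UMIs with TAK-981, 125 CPM (121 to 129), and 4127 with vehicle, 77.9 CPM (75.5 to 80.3), a ratio of 1.60 (1.53 to 1.67). By counting error alone, the interval of the A20 ratio lies between 1 and 2. It overlaps neither that of T cells nor that of myeloid cells, which overlap each other. Differences among cells or mice are not covered by these intervals. A20 cells with 5 or more Samhd1 UMIs were 14.3% of TAK-981 and 10.4% of vehicle cells, and held 49.2% and 38.6% of the Samhd1 UMIs.

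The share of cells with a Samhd1 UMI at equal depth was 53.3% (37.9 to 68.3%) with TAK-981 and 25% (14.7 to 37.9%) with vehicle in T cells. It was 89.7% (75.8 to 97.1%) with TAK-981 and 63.6% (47.8 to 77.6%) with vehicle in myeloid cells, and 37.5% (35.2 to 39.8%) with TAK-981 and 25.5% (23.7 to 27.4%) with vehicle in A20 cells. Without thinning the A20 shares were 72.3% with TAK-981 and 69.2% with vehicle, closer together, the vehicle cells being the deeper ones. In the vehicle library T cells stood 1.16-fold above A20 cells in Samhd1, with an interval that includes 1 (0.916 to 1.45), and myeloid cells were 5.97-fold (5.23 to 6.78) above A20 cells. In the TAK-981 library T cells were 3.44-fold (2.96 to 3.98) and myeloid cells 12.3-fold (11.2 to 13.4) above A20 cells. Cells with 5 or more Samhd1 UMIs numbered 17 among TAK-981 and 2 among vehicle T cells.

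Isg20 had close to equal, low levels in vehicle T and myeloid cells and higher levels in both with TAK-981. T cells had 120 Isg20 UMIs with TAK-981, 270 CPM (224 to 323), and 21 with vehicle, 24.3 CPM (15.1 to 37.2), a ratio of 11.1 (6.93 to 18.6). Myeloid cells had 162 UMIs with TAK-981, 446 CPM (380 to 521), and 12 with vehicle, 22.5 CPM (11.6 to 39.3), a ratio of 19.9 (11.1 to 39.2). The 2 ratios overlap in their intervals. At equal depth 57.8% (42.2 to 72.3%) of TAK-981 and 15% (7.10 to 26.6%) of vehicle T cells had an Isg20 UMI, as did 66.7% (49.8 to 80.9%) of TAK-981 and 18.2% (8.19 to 32.7%) of vehicle myeloid cells.

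A20 cells had 521 Isg20 UMIs with TAK-981, 16.0 CPM (14.7 to 17.5), and 367 with vehicle, 6.92 CPM (6.23 to 7.67), a ratio of 2.32 (2.02 to 2.66). The number of A20 cells with at least 1 Isg20 UMI was 294 in each library, or 16.8% with TAK-981 and 13.4% with vehicle, and at equal depth 4.96% (3.99 to 6.08%) with TAK-981 and 2.92% (2.26 to 3.71%) with vehicle. The upper end of the distribution differed more: 20 TAK-981 and 1 vehicle A20 cells had 5 or more Isg20 UMIs. Those 20 cells, 1.14% of the class, held 156 of the 521 UMIs (29.9%), and the 1 vehicle cell held 10 of 367. Outside them the level was 11.4 CPM with TAK-981 and 6.74 CPM with vehicle, so the value of over 2-fold is not reached without these few cells. A cut on Isg20 itself that takes 20 TAK-981 cells and 1 vehicle cell lowers the ratio by construction. Of the 20 cells, 19 had UMIs of Isg15, the ubiquitin-like interferon-stimulated gene, against 18.6% of the other 1734 TAK-981 A20 cells, and none had a Xist UMI. Their median depth was 24893.5 UMIs against 16055 in the others. These cells were picked for their Isg20 and are a description.

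**Figure D3:**
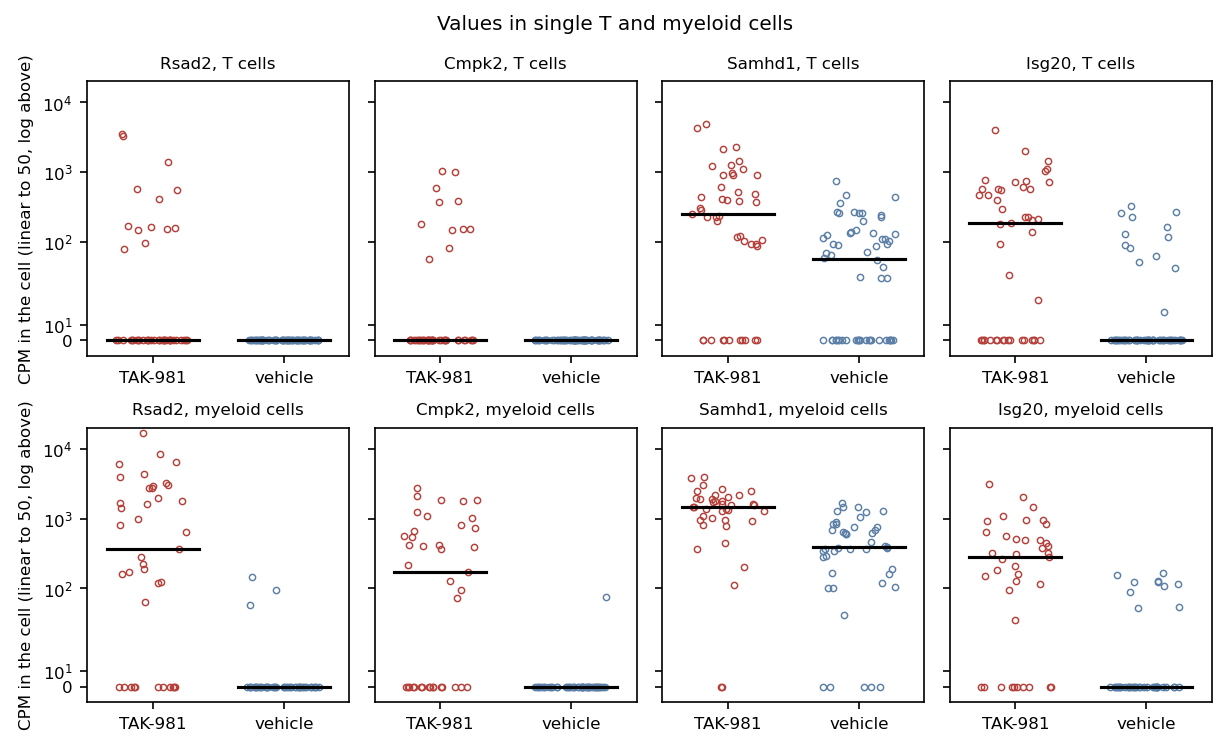
CPM of each enzyme gene in every T cell (top row) and myeloid cell (bottom row), TAK-981 left and vehicle right in each panel; the axis is linear to 50 and logarithmic above, and the black line is the median over cells. Rsad2 had UMIs in 28 and Cmpk2 in 23 of 39 TAK-981 myeloid cells, over a graded range of levels, and Samhd1 was found in 37 of 39 TAK-981 and 39 of 44 vehicle myeloid cells.

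Cells with all 4 transcripts were found in myeloid and T cells of the TAK-981 library. At equal depth 12 of 39 TAK-981 myeloid cells held all 4 and 2 held none, while none of 44 vehicle myeloid cells held all 4. In T cells 2 of 45 TAK-981 cells held all 4 and 12 held none, and of 60 vehicle cells 0 held all 4 and 41 none. In A20 cells Samhd1 and Isg20 shared 59 TAK-981 cells where the product of their shares gives 32.6, and 21 vehicle cells where it gives 16.3. These counts describe co-detection in these cells and were not tested. The genes did not keep 1 ratio to each other from class to class, since Rsad2 made up 41.5% of the 4 genes' UMIs in TAK-981 myeloid cells, 16.4% in TAK-981 T cells and 0.0656% in TAK-981 A20 cells.

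**Figure D4:**
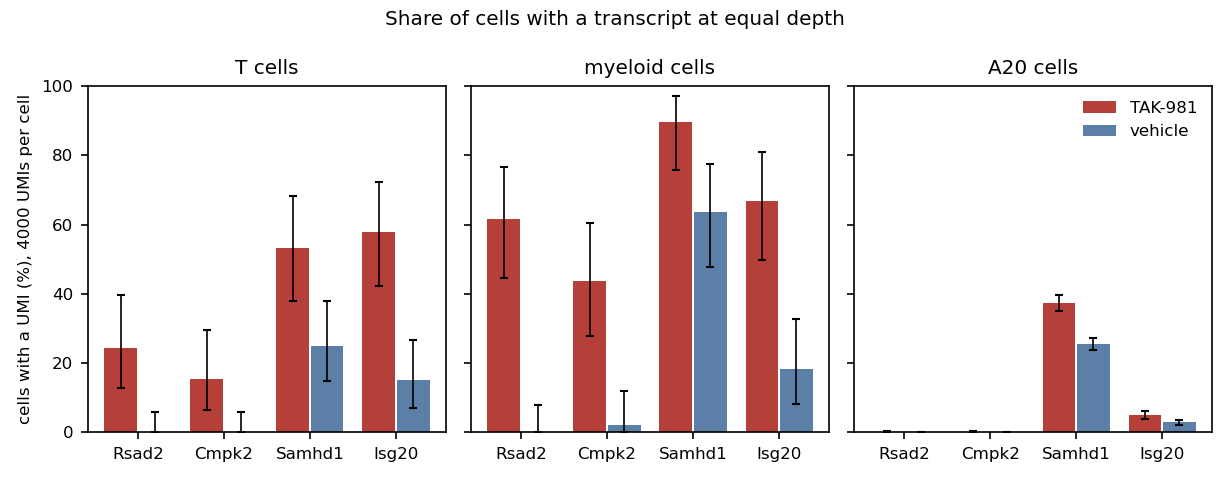
Share of cells with at least 1 UMI of each enzyme gene after thinning every cell to 4000 UMIs, TAK-981 (red) left of vehicle (blue), with exact 95% binomial intervals. For Isg20 the TAK-981 bars stand at 57.8% in T, 66.7% in myeloid and 4.96% in A20 cells, and the vehicle bars at 15%, 18.2% and 2.92%.

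Within T cells the pattern was present with and without Cd8 transcripts. Among cells with a Cd8a or Cd8b1 UMI (22 TAK-981 and 37 vehicle cells), Samhd1 was at 401 CPM with TAK-981 and 66.5 CPM with vehicle, 6.03-fold (4.02 to 9.23). Isg20 was at 242 CPM with TAK-981 and 11.4 CPM with vehicle in these cells, 21.2-fold (9.09 to 60.5). Among cells with neither (23 in each library), Samhd1 was at 454 CPM with TAK-981 and 128 CPM with vehicle, 3.55-fold (2.47 to 5.18). Isg20 was at 294 CPM with TAK-981 and 44.6 CPM with vehicle there, 6.60-fold (3.74 to 12.4). Rsad2 had 24 TAK-981 UMIs in the first set and 42 in the second, and no vehicle UMI in either. A missing Cd8 UMI does not show that a cell lacks Cd8.

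The 7 myeloid cells with C1q transcripts, all from the vehicle library, had 0 Rsad2, 0 Cmpk2, 47 Samhd1 (480 CPM) and 2 Isg20 UMIs (20.4 CPM). With them left out, 39 TAK-981 and 37 vehicle cells gave ratios of 252 (85.8 to 1225) for Rsad2, 203 (36.0 to 8067) for Cmpk2, 3.32 (2.82 to 3.92) for Samhd1 and 19.5 (10.3 to 41.4) for Isg20. The part of Cd74-rich cells and of neutrophil transcripts in the myeloid ratios was not tested.

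A list of 34 other interferon-stimulated genes was set beside the 4 enzyme genes. At least 10 UMIs were found for 28 of them in T cells, 32 in myeloid cells and 30 in A20 cells, and 28, 30 and 25 of these were at least 2-fold higher with TAK-981, with none 2-fold lower. The shares of all genes that were higher were 6.32%, 10.8% and 3.46% in T, myeloid and A20 cells. Some listed genes reached 10 UMIs through the TAK-981 library, such as Ifit3 in T cells with 44 TAK-981 and 0 vehicle UMIs. Such genes count as higher by construction and add nothing to the comparison of shares. The median log2 ratios of the listed genes were 2.89 in T cells, 3.66 in myeloid cells and 1.92 in A20 cells, against −0.04, −0.09 and 0.06 over all genes of those classes. A20 cells therefore had clear ratios for most measured members of the response while Rsad2 and Cmpk2 stayed near 0. Those 2 genes were not alone in this. In A20 cells Oas2 had 2 TAK-981 and 0 vehicle UMIs, Oas3 had 1 and 1, and Oas1g had 4 and 1, all under the minimum of 10. Mx1, an interferon-induced GTPase, had 133 TAK-981 and 1 vehicle UMIs in A20 cells, a ratio of 217 (38.3 to 8642). Ifit1, which binds foreign RNA caps, had 141 TAK-981 and 7 vehicle UMIs there, 32.9-fold (15.6 to 83.3). Usp18, which removes ISG15 and dampens interferon signalling, had 1143 TAK-981 and 147 vehicle UMIs, 12.7-fold (10.7 to 15.2). In A20 cells these are still low levels, since Usp18 stood at 35.2 CPM with TAK-981 and 2.77 CPM with vehicle.

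The IFIT and OAS families overlap with that list, and the same all-gene shares of 6.32%, 10.8% and 3.46% stand beside their counts. Here too, members that reached 10 UMIs through the TAK-981 library count as higher by construction. In T cells these include Ifit1 with 114 TAK-981 and 2 vehicle UMIs, Oas1a with 14 and 3, and Oas3 with 15 and 1. The IFIT family, RNA-binding proteins of the same response, had 5 of 5 measured members at least 2-fold higher in T cells, 5 of 5 in myeloid cells and 6 of 6 in A20 cells. In myeloid cells Ifit1 had 311 TAK-981 and 0 vehicle UMIs, at least 152-fold higher, and Ifit2 had 270 TAK-981 and 2 vehicle UMIs, 199-fold (54.5 to 1649). The OAS family, whose members make the 2-5A that switches on RNase L or are inactive relatives, had 2 of 2 in T cells, 5 of 5 in myeloid cells and 3 of 4 in A20 cells. Oasl1, one such relative, had 465.7 CPM with TAK-981 and 14.98 CPM with vehicle in myeloid cells, 31.1-fold (15.4 to 73.2). Ifit3 and Ifit3b, and Oas1a and Oas1g, are near-identical pairs whose counts are uncertain one by one.

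Enzymes of ordinary nucleotide supply and removal gave no such shift as a list. Of 28 genes, 24 were measured in T cells with 1 at least 2-fold higher and 2 lower, 13 in myeloid cells with 2 higher and 2 lower, and 26 in A20 cells with none. The shares over all genes were 6.32% higher and 9.32% lower in T cells, and 10.8% higher and 14.3% lower in myeloid cells. In A20 cells they were 3.46% higher and 1.5% lower. Median log2 ratios were −0.24, 0.07 and −0.15 in T, myeloid and A20 cells. Pnp, which splits purine nucleosides and has a near-identical neighbour copy, was higher in T cells with 142 CPM in TAK-981 and 54.5 CPM in vehicle, 2.60-fold (1.75 to 3.88). In myeloid cells Pnp was at 1086 CPM with TAK-981 and 167 CPM with vehicle, 6.51-fold (5.16 to 8.29). Dck, the salvage kinase that makes deoxycytidine monophosphate, had 80 TAK-981 and 15 vehicle UMIs in myeloid cells, 7.85-fold (4.49 to 14.7). The lower ratios rested on few UMIs. Dtymk, the thymidylate kinase, had 7 TAK-981 and 29 vehicle UMIs in myeloid cells, a ratio of 0.355 (0.131 to 0.829). Dctpp1, a dCTP pyrophosphatase, had 11 TAK-981 and 35 vehicle UMIs in myeloid cells, 0.462 (0.212 to 0.932). Nme1, a nucleoside diphosphate kinase, had 6 TAK-981 and 35 vehicle UMIs in T cells, 0.333 (0.114 to 0.799).

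RNA degradation genes were likewise mixed. Of 35 listed genes, 33 were measured in T cells with 3 at least 2-fold higher and none lower, 29 in myeloid cells with 6 higher and 8 lower, and 34 in A20 cells with none in either direction. Over all genes, 6.32% were higher and 9.32% lower in T cells, and 10.8% higher and 14.3% lower in myeloid cells. In A20 cells 3.46% of all genes were higher and 1.5% lower. The medians were 0.20, −0.19 and −0.03 on the log2 scale in T, myeloid and A20 cells. In myeloid cells Zc3hav1, the antiviral protein ZAP that marks CpG-rich RNA for decay, had 77 TAK-981 and 45 vehicle UMIs, 2.52-fold (1.72 to 3.72). Xrn2, a nuclear 5′ to 3′ exonuclease, had 95 TAK-981 and 62 vehicle UMIs, 2.25-fold (1.62 to 3.16). Pnpt1, a mitochondrial exonuclease, had 22 TAK-981 and 4 vehicle UMIs, 8.09-fold (2.75 to 32.3). Exosc10, Exosc5 and Exosc9, subunits of the exosome that trims RNA from the 3′ end, were among the 8 lower genes of myeloid cells. Exosc10 had 2 TAK-981 and 20 vehicle UMIs, a ratio of 0.147 (0.0167 to 0.606), and Exosc5 had 12 TAK-981 and 43 vehicle UMIs, 0.411 (0.197 to 0.793). Exosc9 had 4 TAK-981 and 16 vehicle UMIs, 0.368, with an interval of 0.0895 to 1.14 that includes 1.

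Genes that serve the enzymes themselves showed no common shift. Viperin receives its iron-sulfur cluster through the cytosolic assembly proteins, of which Ciao1, Fam96a, Fam96b, Narfl and Mms19 were listed. All 5 were measured in A20 cells with ratios of 0.967 to 1.02. In T cells Ciao1 had 8 TAK-981 and 33 vehicle UMIs, 0.470 (0.188 to 1.04), and the other four had ratios of 0.821 to 1.20. In myeloid cells the measured 3, Ciao1, Fam96a and Fam96b, had ratios of 0.890 to 1.29. Samhd1 is phosphorylated by cyclin-dependent kinases in dividing cells. In T cells the cyclin gene Ccna2 was at 196 CPM with TAK-981 and 104 CPM with vehicle, 1.87-fold (1.38 to 2.55), and the cyclin gene Ccne1 at 11.2 CPM with TAK-981 and 37.1 CPM with vehicle, 0.303 (0.0922 to 0.784). The kinase genes had ratios of 1.34 (0.926 to 1.94) for Cdk1 and 0.681 (0.332 to 1.31) for Cdk2 in T cells. In A20 cells the 4 ratios were 0.857 to 0.922, and in myeloid cells none of the 4 reached 10 UMIs.

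**Figure D5:**
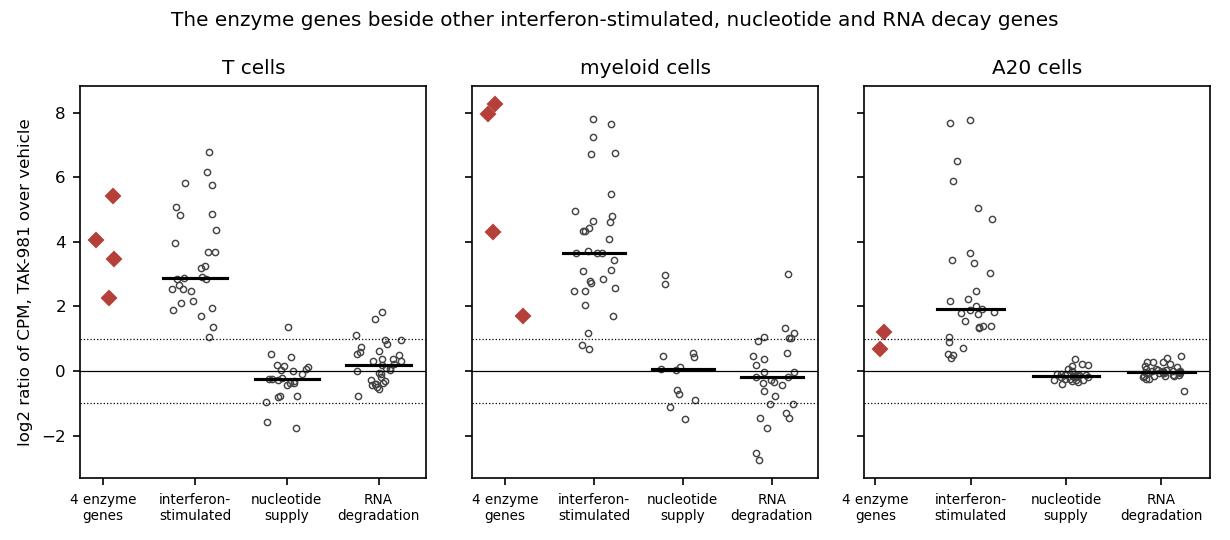
Log2 ratio of CPM, TAK-981 over vehicle, of the measured enzyme genes (red diamonds) and of the genes with at least 10 UMIs of 3 lists (open circles), by class; black lines are list medians and dotted lines mark 2-fold. Interferon-stimulated genes have medians of 2.89, 3.66 and 1.92 in T, myeloid and A20 cells, while nucleotide and RNA degradation genes centre near 0 with medians between −0.24 and 0.20.

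Genes most like each enzyme gene were ranked over 6 values each, the log2(CPM + 10) of 3 classes in 2 libraries, by the smallest root mean square difference after centring, among 11060 genes. The measure uses the same values as the ratios above and is a description. For Rsad2 these were Cxcl10, Ifit1, Cmpk2, Ifit2 and Ifit3, with differences of 0.61 to 0.79. For Cmpk2 they were Ifit2, Mx1, Pyhin1, Ifit3 and Phf11d, at 0.25 to 0.60. For Samhd1 they were Oas1a, Casp4, Hspa1a, Xdh and Irgm1, at 0.25 to 0.35, and for Isg20 Phf11b, Ddx58, Trim30a, Parp14 and Ifit3b, at 0.18 to 0.41. The added 10 CPM flattens values well under 10 CPM, and centring removes the level. Mx1 and Ifit3 were thus ranked near Cmpk2, though in TAK-981 A20 cells they were at 4.10 and 3.88 CPM and Cmpk2 at 0.0616 CPM. In the same cells Oas1a was at 0.216 CPM and Samhd1 at 125 CPM. Cxcl10, a chemokine that draws T cells, had 2814 CPM in TAK-981 and 63.7 CPM in vehicle myeloid cells. Phf11b, the closest match of Isg20, had 229 CPM in TAK-981 and 27.8 CPM in vehicle T cells, 524 CPM in TAK-981 and 24.3 CPM in vehicle myeloid cells, and 12.7 CPM in TAK-981 and 5.24 CPM in vehicle A20 cells.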

How the data were processed

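Single-cell libraries were made with the 10x Genomics Chromium 5′ kit, per the labels' protocols, from 1 TAK-981 and 1 vehicle sample. The deposited files hold raw UMI counts per gene and barcode, not normalized. Cell Ranger 2.1.1 and Seurat 2 are named in the submitters' processing notes with no role given. The genome build is not given in the sources used here. No barcode had under 4670 UMIs (TAK-981) or 5965 UMIs (vehicle), so the files hold barcodes already filtered by the authors. No doublet caller was run, and T and myeloid cells with B cell transcripts were left out in an alternative.

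The 4 genes, the lists and the classes were chosen with earlier results of these data known. Counts were summed per class in Python 3.11.15 (pandas 2.3.3, numpy 2.4.6, matplotlib 3.10.9) with intervals from scipy 1.17.1. Class totals were 444730 and 862615 UMIs in T cells, 362880 and 533937 in myeloid cells and 32464036 and 53011253 in A20 cells of the TAK-981 and vehicle libraries. Ratios carry exact conditional binomial 95% intervals, levels exact Poisson and shares Clopper-Pearson ones. Where no cell had a UMI, 3 cells divided by the cells counted is printed as well. Against 0 UMIs, 3 counts over the class sum set the bound, and no ratio is given where the other sum is also at or under 3. List medians count genes with a bound at that bound. The intervals assume independent UMIs and cover neither differences among cells nor among mice. Thinning drew 4000 UMIs per cell without replacement (seed 1), and no cell was shallower. The ratio computation was checked on simulated counts. Genes named from a list were up to 6 per class with at least 20 UMIs and a 2-fold ratio, by size, and the text describes a part of them. Neighbours were the 3 genes on either side in RefSeq's order. The alternatives changed the scaling, the depth, the class rules, the mitochondrial limit and single cells.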

Additional observations from a re-analysis of the deposited data

Results flagged for a closer look

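The comparisons left out barcodes that met no class rule (182 TAK-981 and 160 vehicle) and those with 10% or more mitochondrial UMIs (376 TAK-981 and 124 vehicle), and the 4 genes had higher levels with TAK-981 in the barcodes of no class. In barcodes of no class Rsad2 was at 8.71 CPM with TAK-981 (16 UMIs in 3 barcodes) and at 0 UMIs with vehicle. Cmpk2 was at 3.26 CPM with TAK-981 (1.20 to 7.11, 6 UMIs in 3 barcodes) and at 0 UMIs with vehicle (up to 1.77), so its intervals overlap, while those of the other three genes do not. Samhd1 was at 133 CPM with TAK-981 and 60.1 CPM with vehicle, and Isg20 at 26.1 CPM with TAK-981 and 3.37 CPM with vehicle in these barcodes. Of the 16 Rsad2 UMIs, 12 lay in 2 of the 12 barcodes with 1 to 4 Lyz2 UMIs, too few for the myeloid rule. Those 12 barcodes had a median depth of 17625.5 UMIs. In barcodes with 10% or more mitochondrial UMIs Samhd1 was at 160 CPM with TAK-981 and 101 CPM with vehicle. Rsad2 and Cmpk2 had 0 UMIs in those mitochondria-rich barcodes of both libraries.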

How the results depend on the processing

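All 120 alternative log2 ratios of the 4 genes lay above 0 and 108 were at least 2-fold. None turned its direction, and 106 stayed within the counting interval of the value reported or, where vehicle was at 0 and that interval has no upper end, above its lower end. The limit of 200 genes per cell and the removal of cells that met both class rules left out no cell, so their ratios could not differ. A lower bound is given only where TAK-981 is higher, so the Rsad2 and Cmpk2 bounds in T cells could not turn. With mean UMIs per cell and no scaling, which keeps the deeper vehicle library ahead, the log2 ratios or bounds in T cells were 4.87 for Rsad2, 3.53 for Cmpk2 and 1.71 for Samhd1, in myeloid cells 1.34 for Samhd1, and in A20 cells 0.29 for Samhd1 and 0.83 for Isg20. Thinned to 4000 UMIs per cell, they were 4.29 for Rsad2, 2.64 for Cmpk2 and 3.15 for Samhd1 in T cells, 3.26 for Isg20 in myeloid cells, and 0.76 for Samhd1 and 1.00 for Isg20 in A20 cells. The Rsad2 bound in T cells was 5.02 without cells holding 5 or more B cell UMIs and 4.96 without the cell with most Rsad2 UMIs. The cause of these shifts was not tested. A mean of each cell's CPM gives no bound for Rsad2 and Cmpk2 in T cells, where vehicle is at 0. Chosen after seeing the data were limits of 200 genes per cell, which removed no cell of any class, T cells with Lyz2 at 0 and A20 cells without Xist. Neither of the settings on Lyz2 and Xist moved a ratio out of its interval. Unthinned shares with a Samhd1 UMI were 75.6% and 58.3% in TAK-981 and vehicle T cells, 88.6% in vehicle myeloid cells and 72.3% and 69.2% in TAK-981 and vehicle A20 cells, and with Isg20 16.8% and 13.4% in A20 cells. With a minimum of 50 UMIs, 3.39% of genes were 2-fold higher and 2.57% lower in T cells, 6.06% lower in myeloid cells, and 1.33% higher and 0.188% lower in A20 cells, and with a minimum of 1 UMI 5.85% were higher in A20 cells. At 50 UMIs 15 of 15 interferon-stimulated genes were higher in T cells, 0 nucleotide genes were lower in T or myeloid cells, and 0 RNA degradation genes were higher in T cells, with 3 higher and 1 lower in myeloid cells. Some of the 15, such as Ifit1 with 114 TAK-981 and 2 vehicle UMIs, reached 50 UMIs through the TAK-981 library. No iron-sulfur gene (0) and no Samhd1 kinase gene (0) was then lower in T cells. No paired analysis was possible because each arm had 1 library. Few T and myeloid cells limit the precision there, and 0 to 3 vehicle UMIs set the ratios of Rsad2 and Cmpk2.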
